A study of Homo sapiens with 4 samples.

Results

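SOX genes encode transcription factors that bind and bend DNA through a shared HMG box. The 10 members described here, SOX2, SOX4, SOX5, SOX6, SOX8, SOX9, SOX10, SOX11, SOX12 and SOX13, were chosen by symbol from a given list, and each matched an Ensembl identifier of its own among the 60617 gene entries. The members were counted in SKNMC, an established human Ewing sarcoma cell line whose tumour type is driven by a fusion of EWSR1 with an ETS gene, most often FLI1. RNA-seq libraries came from SKNMC cells given CBL0137 at 1 µM for 24 h (n = 2) and from SKNMC cells given the DMSO vehicle for 24 h (n = 2). CBL0137 is a curaxin, a DNA-binding small molecule that traps the histone chaperone FACT on chromatin, and the series asks which transcripts differ between these groups. Both groups are cultures of this line with no genetic change given in the labels. The labels do not state whether the 2 libraries of a group are separate cultures, so the spread behind each p-value is that between libraries and may be technical only.

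SOX proteins are sorted into groups by their HMG box and overall build. SOX2 belongs to group B1, which keeps neural and pluripotent stem cells undifferentiated. SOX4, SOX11 and SOX12 form group C, active in embryonic neural and mesenchymal progenitors. SOX5, SOX6 and SOX13 form group D, whose proteins carry a coiled coil and no known activation domain. SOX8, SOX9 and SOX10 form group E, known from neural crest, glia and cartilage, where SOX9 acts together with SOX5 and SOX6. SOX6 is known in Ewing sarcoma as a gene that EWSR1-FLI1 activates through an intronic repeat of GGAA units.

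The libraries held 20767817 and 21061892 reads in genes with CBL0137 and 20086664 and 19625517 with DMSO. Over all 17374 tested genes 18.2% were called higher and 15.1% lower with CBL0137, the shares to set beside the marker counts that follow. Of 9 Ewing sarcoma markers, 9 were detected, with summed levels of 1368 and 1474 CPM (counts scaled to TMM-adjusted library size) with CBL0137 and 2551 and 2537 CPM with DMSO. The 5 called lower were CD99, NR0B1, PRKCB, CCND1 and BCL11B. With library size alone CD99 (-0.53) and NR0B1 (-0.51) were not called, and NR0B1 was not called without CBL0137 replicate 1 (-0.57) or in either FPKM alternative (-0.53 and -0.54). FLI1 was not called, with a log2 fold change of 0.02 (SE 0.06). The fall was not shared by all markers. LIPI (0.35, SE 0.07) and NKX2-2 (0.23, SE 0.08) lay higher with CBL0137 and STEAP1 (-0.24, SE 0.06) lower, none of them called. CCND1 was the largest part of the sums, at 527 and 574 CPM with CBL0137 and 1158 and 1144 CPM with DMSO. Among markers of other cell types, the 3 tested epithelial genes of 4 were called higher. The 4 summed to 113 and 114 CPM with CBL0137 and to 51.2 and 52.0 CPM with DMSO. Most of this came from KRT18, at 99.3 and 97.3 CPM with CBL0137 and 45.8 and 46.6 CPM with DMSO. The defining marker CDH1, not tested, had 12 and 10 reads with CBL0137 against 0 and 0 with DMSO. Of 5 fibroblast genes 2 were called higher and 1 lower (sums 1232 and 1225 CPM with CBL0137, 947 and 939 CPM with DMSO). COL1A1 rose, at 471 and 441 CPM with CBL0137 and 127 and 119 CPM with DMSO. By log2 fold change COL1A2 (0.03) and DCN (-0.52) were not called and LUM (-0.79) was called lower. PDGFRA, called higher, had 34 and 36 reads with CBL0137 and 10 and 4 with DMSO. It passed the filter on low counts through its level with CBL0137, so its call is no support. Of 4 endothelial genes 2 were tested and 1 of these was called higher (sums over the 4 of 4.14 and 4.79 CPM with CBL0137, 2.80 and 2.42 CPM with DMSO). TEK, not tested, had 2 and 0 reads with CBL0137 against 0 and 0 with DMSO. VWF, also not tested, had 0 and 4 reads with CBL0137 against 9 and 3 with DMSO. The 2 tested immune genes of 4 were not called (sums 108 and 125 CPM with CBL0137, 163 and 163 CPM with DMSO). Nearly all of that sum came from PTPRC, whereas CD3E had 1 and 0 reads against 0 and 0. Whether any other cell type has a part in the SOX values was not tested, and fewer cells of a type and less RNA per cell cannot be told apart in bulk RNA.

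The sequences that follow show the reference windows around the RefSeq starts of 4 members and a run of GGAA units from each of SOX6 and SOX5. RefSeq promoter windows (build GRCh38.p14, 250 bases before to 50 after the start) were matched for 6 of the 10 members: SOX2, SOX4, SOX5, SOX6, SOX12 and SOX13. The windows of SOX13, which rose, of SOX6 at its most upstream start, which fell, and of SOX2 and SOX12, which were not called, are printed 5′ to 3′ along the gene. Capitals mark matches on either strand to the SOX binding sequences ACAATG and, as a variant, ACAAAG, to the promoter box CCAAT (bound by NF-Y), to the TATA box written TATAAA here, to ATGCAAAT (the octamer of POU factors, partners of SOX proteins) or to GGAAGGAA (tandem ETS core).
SOX13 promoter, chr1:204072865-204073164, plus strand: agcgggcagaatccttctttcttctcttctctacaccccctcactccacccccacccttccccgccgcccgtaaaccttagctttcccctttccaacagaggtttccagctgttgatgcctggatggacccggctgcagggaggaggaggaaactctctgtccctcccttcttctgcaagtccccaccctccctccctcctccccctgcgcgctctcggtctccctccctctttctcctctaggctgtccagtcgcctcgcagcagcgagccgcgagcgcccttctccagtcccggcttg
SOX6 promoter, chr11:16738428-16738727, minus strand: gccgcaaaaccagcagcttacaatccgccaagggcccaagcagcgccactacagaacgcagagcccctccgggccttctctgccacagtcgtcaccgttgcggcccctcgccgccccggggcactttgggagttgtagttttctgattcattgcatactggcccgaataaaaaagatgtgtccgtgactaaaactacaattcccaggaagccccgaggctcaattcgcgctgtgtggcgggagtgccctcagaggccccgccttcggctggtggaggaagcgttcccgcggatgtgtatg
SOX2 promoter, chr3:181711675-181711974, plus strand: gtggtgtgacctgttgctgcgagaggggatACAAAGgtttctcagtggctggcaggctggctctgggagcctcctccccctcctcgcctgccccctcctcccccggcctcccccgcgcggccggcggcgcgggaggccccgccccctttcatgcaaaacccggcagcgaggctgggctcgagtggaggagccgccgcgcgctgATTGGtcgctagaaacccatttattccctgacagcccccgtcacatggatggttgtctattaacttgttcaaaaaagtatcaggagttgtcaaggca
SOX12 promoter, chr20:325302-325601, plus strand: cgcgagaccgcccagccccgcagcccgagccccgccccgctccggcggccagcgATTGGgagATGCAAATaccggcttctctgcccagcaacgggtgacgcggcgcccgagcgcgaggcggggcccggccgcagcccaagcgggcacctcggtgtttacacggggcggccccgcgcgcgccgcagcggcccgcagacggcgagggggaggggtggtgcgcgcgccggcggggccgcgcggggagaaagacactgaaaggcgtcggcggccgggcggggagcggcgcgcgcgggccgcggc
The SOX13 window and this SOX6 window held no match to these 6 motifs, while windows at other SOX6 starts in the table held matches to 5 of the 6, all but the octamer. SOX2 held an ACAAAG at 220 bases before its start and a CCAAT on the opposite strand, and SOX12 held a CCAAT on the opposite strand and the octamer at 188 bases before its start. No match in these windows overlapped another. Of 35116 windows of the same length, 16.1% held ACAAAG, 10.8% ACAATG, 34.6% CCAAT, 11.5% TATAAA, 1.77% the octamer and 3.67% the tandem ETS core. The windows differed in base composition, with 80.3% GC in SOX12, 63.3% in SOX2, 62.7% in SOX13 and 60.0% in SOX6, against a median of 58.7% over all windows.

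Tandem GGAA runs of at least 4 units were searched in the gene bodies of the 10 members on GRCh37, the build to which the authors' hg19 corresponds. SOX6 held 7 runs and SOX5 held 3, and each lay in an intron. Only uninterrupted units were counted, so parts of a broken repeat count as separate runs. Such neighbours in SOX6 are chr11:16371222-16371261 and chr11:16371265-16371304, with 10 units each. The other 8 members, whose genes are far shorter, held 0. The longest uninterrupted runs in SOX6 and SOX5 had 16 units. One of them is shown for each gene, with the units in capitals, 12 flanking bases in lower case and the coordinates those of the capitals.
SOX6 repeat, chr11:16395369-16395432, plus strand: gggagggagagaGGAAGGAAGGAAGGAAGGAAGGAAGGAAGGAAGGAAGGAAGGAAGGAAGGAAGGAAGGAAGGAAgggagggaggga
SOX5 repeat, chr12:24460387-24460450, plus strand: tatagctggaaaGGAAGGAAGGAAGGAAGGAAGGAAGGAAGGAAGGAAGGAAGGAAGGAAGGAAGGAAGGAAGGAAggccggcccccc
A match is a description of the reference sequence. The number of units in SKNMC itself was not analysed here, and these runs say nothing by themselves about binding. Which SOX6 run, if any, is the repeat through which EWSR1-FLI1 acts was not tested. SOX5 was nearly silent in these cells and SOX6 was, with SOX11, one of the SOX genes with the most reads, and both hold a run of this length.

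A few SOX genes made up most of the family's RNA. SOX11, SOX6, SOX12, SOX4 and SOX2 each stood at 94.1 CPM or more in every library, SOX8 and SOX13 lay between 10.5 and 33.4 CPM, SOX9 between 0.846 and 3.93 CPM, and SOX5 and SOX10 at 0.361 CPM or less. With CBL0137 SOX9, SOX13 and SOX8 rose, SOX6 fell, and SOX2, SOX4, SOX11 and SOX12 did not pass. A gene was called when edgeR's quasi-likelihood test gave a Benjamini-Hochberg adjusted p under 0.05 over all 17374 tested genes and a fold above 1.5. Of the 10 members 8 passed the filter on low counts, 3 were called higher, 1 lower and 4 not called. Over all tested genes 33.4% were called, 18.2% higher and 15.1% lower. The 8 tested members had a median log2 fold change of 0.16, against 0.01 over all tested genes. In all 8 the 2 CBL0137 libraries lay on one side of the 2 DMSO libraries, which was also so for 79.9% of all tested genes. Without the fold limit 7 of the 8 members passed the adjusted p, SOX11 being the exception, as did 61.7% of all tested genes.

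**Figure D1:**
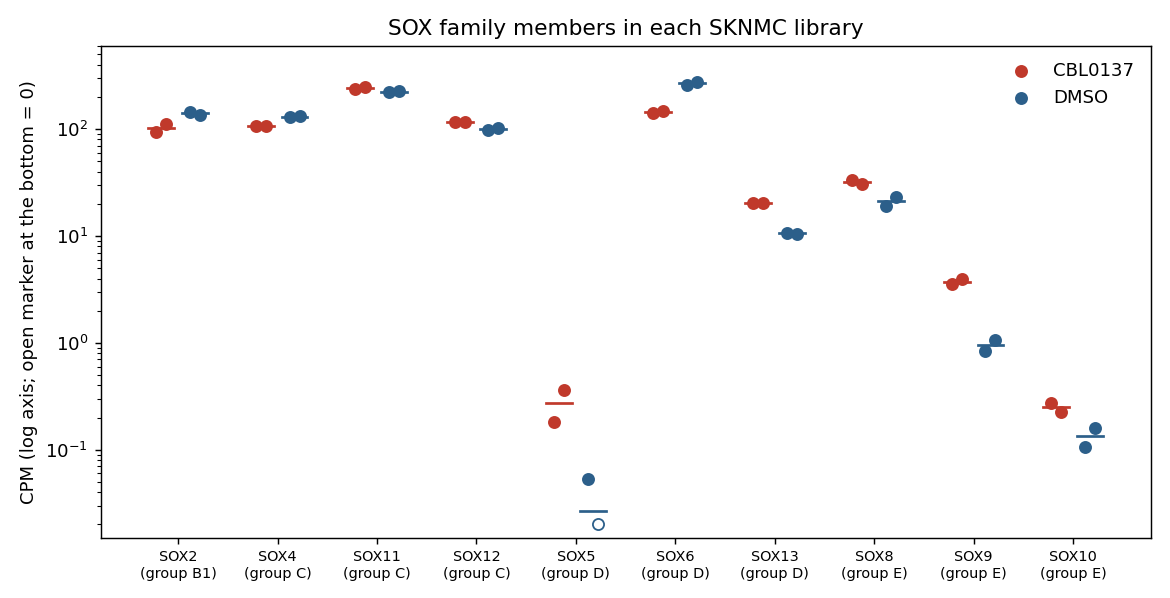
CPM of the 10 SOX members in each library on a log axis; points are libraries and short lines group means (n = 2), with CBL0137 left of DMSO. SOX6 lies lower and SOX13, SOX8 and SOX9 lie higher in both CBL0137 libraries, while SOX11 and SOX12 differ by little. The open point stands for 0 reads of SOX5 in DMSO replicate 2.

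The members' summed level was 756 and 785 CPM with CBL0137 and 886 and 908 CPM with DMSO. The composition of this sum differed between the groups. SOX6 held 18.9% and 18.6% of the members' reads in the CBL0137 libraries, against 29.5% and 30.2% in the DMSO libraries. SOX11 held 31.4% and 31.5% with CBL0137, against 24.96% and 24.99% with DMSO, so SOX11 in place of SOX6 had the most reads. SOX12 held 15.5% and 14.7% with CBL0137, against 10.99% and 11.4% with DMSO. These shares divide reads within a library and need no scaling between libraries, but a share also moves when another member moves. Group C as a whole summed to 461 and 471 CPM with CBL0137 and to 448 and 462 CPM with DMSO, and these ranges overlapped. Group D summed to 163 and 167 CPM with CBL0137 and to 272 and 285 CPM with DMSO, and group E to 37.2 and 34.9 CPM with CBL0137 and to 20.04 and 24.3 CPM with DMSO.

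**Figure D2:**
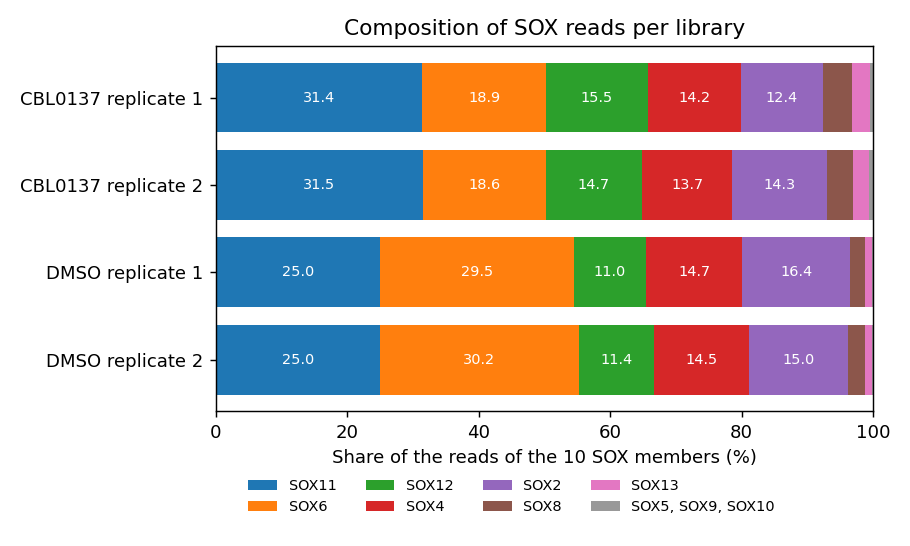
Share of each member in the reads of the 10 SOX members, one bar per library, CBL0137 above DMSO. The SOX6 share is 18.9% and 18.6% in the CBL0137 libraries and 29.5% and 30.2% in the DMSO libraries, and the SOX11 share is the larger one with CBL0137.

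Levels were ordered between genes per length, as CPM per kilobase of annotated exon. SOX2 was the highest member in all 4 libraries, at 37.5 and 44.9 CPM per kilobase with CBL0137 and 57.9 and 54.3 with DMSO. SOX11 (26.4 and 27.5), SOX12 (25.002 and 24.75) and SOX4 (22.01 and 22.1) followed with CBL0137. With DMSO the order below SOX2 was SOX4 (26.7 and 27.1), SOX11 (24.6 and 25.2) and SOX12 (20.8 and 22.1). The deposited FPKM, a unit per length made by the authors, likewise had SOX2 first in all 4 libraries, but had SOX11 ahead of SOX4 with DMSO as well (16.3 and 17.0 for SOX11, 14.3 and 15.005 for SOX4). By CPM per kilobase SOX6 and SOX8 were neighbours that did not differ beyond their spread with CBL0137, at 7.10 and 7.28 CPM per kilobase for SOX6 and 7.47 and 6.88 for SOX8. With DMSO they stood apart, at 13.002 and 13.7 for SOX6 and 4.27 and 5.17 for SOX8. The deposited FPKM gave another order, with SOX8 above SOX6 in all 4 libraries: SOX8 was at 7.27 and 6.34 with CBL0137 and 3.87 and 4.25 with DMSO, and SOX6 at 2.29 and 2.79 with CBL0137 and 3.39 and 2.28 with DMSO. The place of SOX6 in the order thus depends on the unit.

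Within group B1, SOX2 (ENSG00000181449, GRCh37 chromosome 3, 181429713 to 181432224, plus strand), a gene with a single exon inside an intron of the noncoding gene SOX2-OT, was at 94.1 and 113 CPM in the CBL0137 libraries. In the DMSO libraries it was at 145 and 136 CPM. Both CBL0137 libraries were below both DMSO libraries, and CBL0137 replicate 1 was the lowest. The log2 fold change was -0.45 (SE 0.06, edgeR adjusted p = 5.9e-08), under the fold limit. SOX2 was called lower without CBL0137 replicate 2 (-0.59). SOX2-OT, which shares no exonic base with SOX2, had 56 and 77 reads with CBL0137 and 63 and 88 with DMSO. These ranges overlapped (log2 fold change -0.42, SE 0.24, edgeR adjusted p = 0.134), and SOX2-OT was called lower without DMSO replicate 1 (-0.67).

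The group C genes SOX11, SOX12 and SOX4 each consist of a single exon block. SOX11 (ENSG00000176887, chromosome 2, 5832516 to 5841517, plus strand), a neural progenitor factor, was at 237 and 248 CPM with CBL0137 and at 221 and 227 CPM with DMSO. The groups lay close together without overlap, and the log2 fold change of 0.11 (SE 0.05) had an edgeR adjusted p of 0.054. SOX12 (ENSG00000177732, chromosome 20, 306196 to 310868, plus strand) stood at 117 and 116 CPM with CBL0137 and at 97.3 and 103 CPM with DMSO, with 0.21 as its log2 fold change (SE 0.06, edgeR adjusted p = 0.0013) under the fold limit. SOX4 (ENSG00000124766, chromosome 6, 21593982 to 21598850, plus strand), a factor of many embryonic progenitors and tumours, was at 107 and 108 CPM with CBL0137 and at 129.9 and 132 CPM with DMSO, with -0.29 as its log2 fold change (SE 0.06, edgeR adjusted p = 2.0e-05), also under it. SOX4 and its relatives thus had opposite signs, and ratios of reads within a library, which no scaling can move, separated the groups as well. SOX12 was at -0.25 after the GC and span trend was removed, and then had the sign of SOX4. There were 2.21 and 2.30 SOX11 reads per SOX4 read with CBL0137 and 1.70 and 1.72 with DMSO. There were 1.09 and 1.08 SOX12 reads per SOX4 read with CBL0137 and 0.749 and 0.782 with DMSO.

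Within group D, SOX6 fell and SOX13 rose. SOX6 (ENSG00000110693, chromosome 11, 15987995 to 16761138, minus strand), the gene with the GGAA runs shown above, was at 143 and 146 CPM with CBL0137 and at 261 and 275 CPM with DMSO. The groups were far apart relative to the replicates, and the log2 fold change was -0.89 (SE 0.05, edgeR adjusted p = 3.1e-18). SOX13 (ENSG00000143842, chromosome 1, 204042243 to 204096871, plus strand), a gene of lymphoid and neural development, was at 20.5 and 20.1 CPM with CBL0137 and at 10.7 and 10.5 CPM with DMSO. Replicates of SOX13 differed by little, and the log2 fold change was 0.94 (SE 0.11, edgeR adjusted p = 1.9e-09). There were 0.144 and 0.138 SOX13 reads per SOX6 read with CBL0137 and 0.0409 and 0.0381 with DMSO. SOX5 (ENSG00000134532, chromosome 12, 23682438 to 24715478, minus strand), the third gene of the group, had 4 and 8 reads with CBL0137 and 1 and 0 with DMSO, and was not tested. The ratio of its summed reads per TMM-adjusted library size was 10.2, with a 95% exact interval of 1.51 to 436 that covers counting error only.

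The fall of SOX6 has 2 limits. It was not seen in the deposited FPKM, which stood at 2.29 and 2.79 with CBL0137 and at 3.39 and 2.28 with DMSO, with overlapping groups (log2 difference -0.13 with 0.1 added before the logarithm, limma adjusted p = 0.696). SOX6 is also one of the longest genes tested, and long genes were called lower more often: of 249 tested genes spanning 500 kb or more, 49.0% were called lower and 6.83% higher, with a median log2 fold change of -0.60. For SOX6 one FPKM corresponded to between 1159 and 2243 reads depending on the library, whereas for SOX2 it was between 72.2 and 80.3 reads, so the FPKM of SOX6 did not follow its count, and the cause was not tested. When the trend of fold change with GC content and gene span was taken out, an alternative chosen after seeing the data, SOX6 was at -0.37 and no longer called. SOX13 was called higher with each alternative that keeps the fold limit of 1.5, and stood at 1.60 with FPKM (0.1 added) and at 0.64 with the trend removed. For SOX13 one FPKM corresponded to 115 and 135 reads with CBL0137 and to 220 and 142 reads with DMSO. The FPKM of SOX13 thus did not follow its count either, and the cause was not tested.

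**Figure D3:**
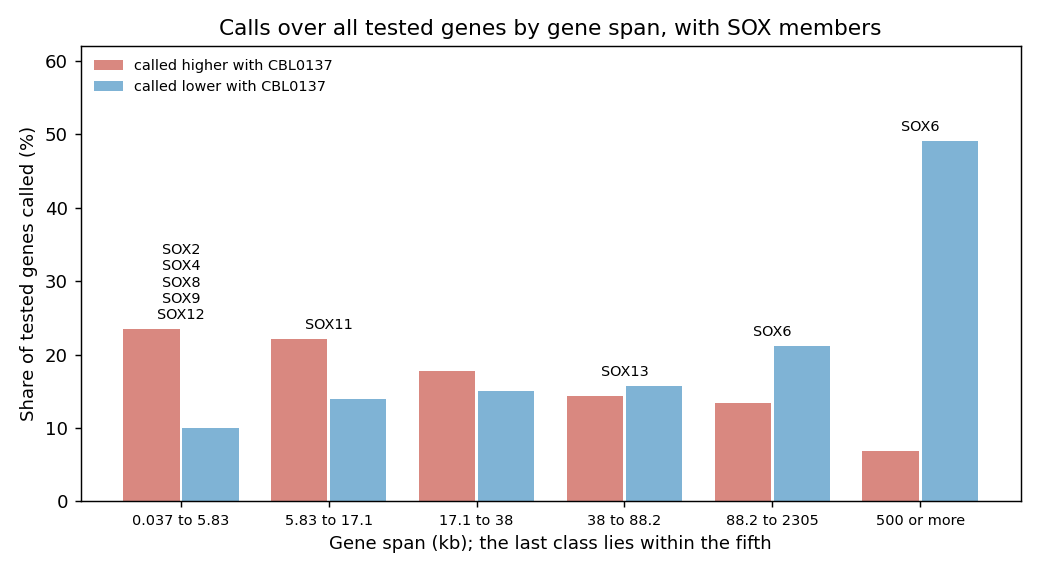
Share of all tested genes called higher or lower with CBL0137, by gene span in kb, with SOX members written above their class; the last class is part of the one before it. Genes of 500 kb or more, SOX6 among them, were called lower in 49.0% and higher in 6.83% of cases, whereas the shortest class was called higher in 23.4% and lower in 10.1%.

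In group E, SOX9 and SOX8 rose and SOX10 was too low to test. SOX9 (ENSG00000125398, chromosome 17, 70117161 to 70122557, plus strand), the factor that drives cartilage formation, had 78 and 87 reads with CBL0137 and 16 and 20 with DMSO, or 3.55 and 3.93 CPM with CBL0137 and 0.846 and 1.07 CPM with DMSO. Both CBL0137 libraries were more than 3-fold above both DMSO libraries, and the log2 fold change was 1.96 (SE 0.31, edgeR adjusted p = 7.7e-07). SOX9 remained a low transcript, with an average abundance above 27.0% of the tested genes. SOX8 (ENSG00000005513, chromosome 16, 1031770 to 1036979, plus strand), a relative of SOX9 in glia and testis, was at 33.4 and 30.8 CPM with CBL0137 and at 19.1 and 23.1 CPM with DMSO. The groups did not overlap, and the value on the log2 scale, 0.61 (SE 0.09, edgeR adjusted p = 5.5e-07), was just past the fold limit of 0.585. This call was lost without CBL0137 replicate 1 (0.54) and without DMSO replicate 1 (0.46). The value of SOX8 was 0.10, not called, after removal of the GC and span trend, and its transcript, at 63.8% GC, lies in the 20% of genes richest in GC, of which 32.1% were called higher and 8.43% lower. SOX9 kept a value of 1.80 and its call with that trend removed.

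SOX10 (ENSG00000100146, chromosome 22, 38366693 to 38383429, minus strand), a factor of Schwann cells and melanocytes, had 6 and 5 reads with CBL0137 and 2 and 3 with DMSO. The ratio of summed reads per TMM-adjusted library size was 1.87, with a 95% exact interval of 0.5995 to 6.87, so no difference was detectable at this depth. Of SOX10's exonic bases 5.39% are shared with POLR2F on the opposite strand, and of SOX4's 3.45% with an opposite-strand gene that has an identifier only. Reads there cannot be told apart, since the strand setting is not stated. SOX11 shares 0.822% of its exonic bases with another gene on its own strand.

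**Figure D4:**
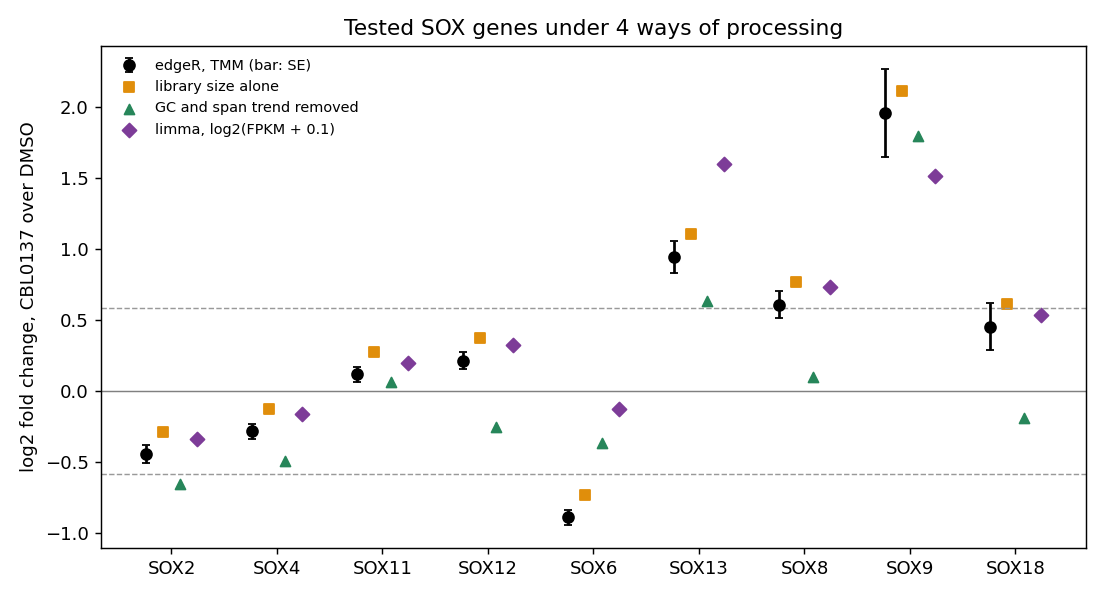
Log2 fold change (CBL0137 over DMSO) of the 8 tested members and SOX18 with edgeR (black, bars are SE, n = 2 each) and under 3 alternatives; dashed lines mark the fold limit of 1.5. SOX13 stays beyond the limit in all 4, SOX6 comes within it under FPKM and after removal of the GC and span trend, and SOX12 and SOX18 change sign when that trend is removed.

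Of the 9 other SOX genes 1 passed the filter. SOX18, a group F factor of blood and lymph vessels, had 289 and 192 reads with CBL0137 and 133 and 166 with DMSO. In CPM these were 13.2 and 8.67 with CBL0137 and 7.03 and 8.92 with DMSO, so the groups overlapped, and CBL0137 replicate 1 stood alone at the top (log2 fold change 0.45, SE 0.16, edgeR adjusted p = 0.015, under the fold limit). It was called higher without CBL0137 replicate 2 (0.72) and without DMSO replicate 2 (0.62), and was at 0.12 without CBL0137 replicate 1. Among untested genes SOX15, of group G, had 9 and 18 reads with CBL0137 and 3 and 2 with DMSO, and SOX30, known from sperm development, 5 and 18 with CBL0137 and 3 and 4 with DMSO. The ratio of summed reads per TMM-adjusted library size was 4.59 for SOX15 (95% exact interval 1.74 to 15.3) and 2.80 for SOX30 (1.16 to 7.71). These intervals cover counting error only, and the CBL0137 libraries differed in both genes. SOX7 had 12 and 5 reads with CBL0137 and 9 and 6 with DMSO, and shares 39.4% of its exonic bases with PINX1. SOX1, SOX17 and SOX21 had at most 3 reads in any library. SOX3 and SOX14 had 0 reads in all 4 libraries. There 3 reads, the limit that a count of 0 allows, correspond to 0.0717 CPM over the CBL0137 libraries and to 0.0755 CPM over the DMSO libraries. These 2 limits use library sizes without the TMM adjustment. The noncoding gene SOX21-AS1 had 1 to 4 reads a library, SOX9-AS1 had 1 read in all, and SOX5-AS1 and SOX1-OT had 0.

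Genes of programmes in which SOX proteins act were then set beside the members. Cartilage matrix genes, the classical targets of SOX9 with SOX5 and SOX6, numbered 15 in the list, of which 8 were too low to test. Of the 7 tested, 6 were called higher and 1 was not called. Over all tested genes 18.2% were called higher. Of the 6, COL2A1, COL9A1, COMP and CHAD were below the filter limit in a DMSO library and entered the test through their level with CBL0137, so their calls are no support for the list. Of the 3 genes over the limit in DMSO, COL11A2 and COL9A2 were called higher and COL9A3 was not called (log2 fold change 0.24, SE 0.07). COL11A2, a fibrillar collagen gene, was at 19.0 and 19.5 CPM with CBL0137 and at 5.71 and 4.73 CPM with DMSO (log2 fold change 1.88, SE 0.14, edgeR adjusted p = 1.3e-15). COL9A2, of a collagen on the fibril surface, was at 24.0 and 19.7 CPM with CBL0137 and at 8.35 and 8.17 CPM with DMSO (1.40, SE 0.12). COMP, the gene of a cartilage glycoprotein, had 138 and 108 reads with CBL0137 and 6 and 17 with DMSO (3.17, SE 0.32), and its log2 fold change was 2.59 without DMSO replicate 1 and 4.10 without DMSO replicate 2. The central cartilage genes stayed low: COL2A1 had 31 and 30 reads with CBL0137 and 10 and 4 with DMSO, and ACAN had 7 and 6 with CBL0137 and 2 and 10 with DMSO. HAPLN1, of a cartilage link protein and not tested, had 0 and 0 reads with CBL0137 and 18 and 9 with DMSO, the opposite direction.

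The neural crest and glia list, which holds targets and partners of SOX10 and SOX9, went both ways. Of its 19 genes 10 were tested and 9 were not. Of the 10 tested, 4 were called higher, 4 lower and 2 not called, against 18.2% higher and 15.1% lower over all tested genes (median of the list's tested genes -0.28, of all tested genes 0.01). NGFR, a neurotrophin receptor gene of neural crest cells, was at 226 and 240 CPM with CBL0137 and at 135 and 127 CPM with DMSO (log2 fold change 0.83, SE 0.05), and was at 0.40, not called, after the GC and span trend was removed. S100B, a glial calcium-binding protein gene, was at 47.5 and 52.9 CPM with CBL0137 and at 26.2 and 20.95 CPM with DMSO (1.09, SE 0.09). FOXD3, an early neural crest factor gene, had 97 and 92 reads with CBL0137 and 9 and 8 with DMSO (3.22, SE 0.35). TFAP2B, a neural crest factor gene, fell to 343 and 387 CPM with CBL0137, against 630 and 641 CPM with DMSO (-0.80, SE 0.06). MITF, the melanocyte regulator that SOX10 activates, fell by 1.12 on the log2 scale (SE 0.15), and EGR2, a gene of myelinating Schwann cells, by 0.82 (SE 0.20).

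The neural progenitor list, with partners and companions of SOX2, had 16 genes, of which 12 were tested and 4 were not. Of the 12 tested, 3 were called higher, 3 lower and 6 not called, against 18.2% higher and 15.1% lower over all tested genes (median of the list's tested genes 0.07, of all 0.01). POU3F2, a POU factor gene whose protein pairs with SOX2 in neural progenitors, fell to 302 and 322 CPM with CBL0137, against 494 and 516 CPM with DMSO (log2 fold change -0.70, SE 0.05), a call lost with library size alone (-0.54). PAX6, another SOX2 partner, fell by 1.03 (SE 0.09), and PROM1, the gene of the stem cell antigen CD133, fell to 21 and 18 reads with CBL0137, against 192 and 199 with DMSO (-3.55, SE 0.23). SALL4, a stem cell factor gene, rose by 0.93 (SE 0.13). NES, the gene of nestin, had 24 and 28 reads with CBL0137 and 3 and 0 with DMSO. The ratio per TMM-adjusted library size was 14.7 for NES (95% exact interval 4.77 to 73.8, counting error only). Its fitted log2 fold change was 3.78, and 2.83 without DMSO replicate 2. FABP7, of radial glia, had 34 and 16 reads with CBL0137 and 5 and 0 with DMSO, and was not called by DESeq2 or without the filter on low counts. Its fitted value was 3.03, and was 2.39 without CBL0137 replicate 1 and 2.06 without DMSO replicate 2.

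In the early neuron list, which holds genes downstream of SOX4 and SOX11, 8 of 14 genes were tested and 6 were not. Of the 8 tested, 1 was called higher, 3 lower and 4 not called, against 18.2% higher and 15.1% lower of all tested genes (median of the list's tested genes -0.50, of all 0.01). NCAM1, a neural adhesion molecule gene, fell to 17.2 and 16.03 CPM with CBL0137, against 40.1 and 39.8 CPM with DMSO (log2 fold change -1.26, SE 0.09). TEAD2, a Hippo pathway factor gene known as a direct target of SOX4 and SOX11 in mice, fell to 103 and 110.2 CPM with CBL0137, against 164 and 159 CPM with DMSO (-0.60, SE 0.06), a call lost under upper-quartile factors (-0.53), under library size alone (-0.44) and without CBL0137 replicate 1 (-0.56). ELAVL4 fell to 9 and 11 reads with CBL0137, against 29 and 26 with DMSO. INSM1, a neuroendocrine factor gene, had 44 and 41 reads with CBL0137 and 12 and 4 with DMSO (2.16, SE 0.46), and its log2 fold change was 3.11 without DMSO replicate 1 and 1.58 without DMSO replicate 2. TUBB3 counted 20 and 14 reads with CBL0137 and 12 and 10 with DMSO although its deposited FPKM lay between 9.50 and 13.5, and the cause of this gap between its count and its FPKM was not tested. In the FPKM alternatives EGR2, TEAD2 and ELAVL4 were not called with either added value, and MITF, NES, INSM1 and POU3F2 not with 1 added. FOXD3, NES, FABP7 and INSM1, called higher, had a DMSO library under the filter limit and entered the test through their level with CBL0137. DCT, called lower in the neural crest and glia list, had 3 and 3 reads with CBL0137 and 10 and 18 with DMSO. Both DCT and ELAVL4 had a CBL0137 library under the filter limit and entered the test through their level with DMSO. These calls are no support for their lists in either direction.

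**Figure D5:**
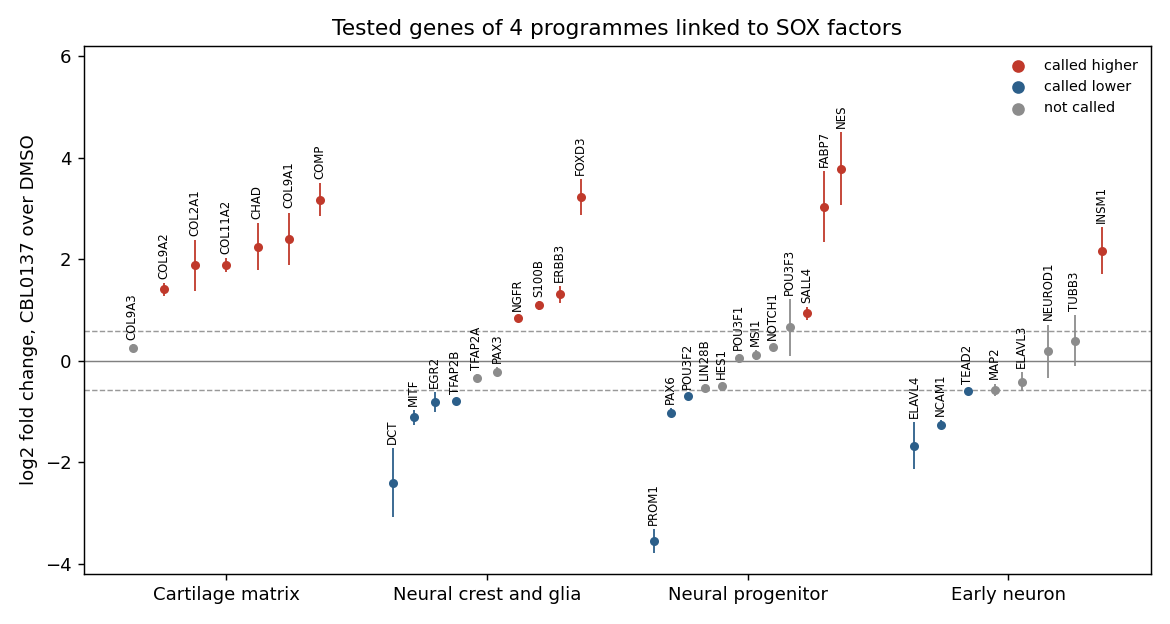
Log2 fold change (CBL0137 over DMSO, bars are SE, n = 2 each) of the tested genes in 4 lists; dashed lines mark the fold limit of 1.5. Of the 7 tested cartilage genes 6 were called higher, but 4 of these entered the test only through their level with CBL0137. The neural crest and glia list has 4 calls in each direction and the neural progenitor list 3 in each. The early neuron list has 1 call higher and 3 lower. In these 3 lists FOXD3, NES, FABP7 and INSM1 entered the test through their level with CBL0137, and DCT and ELAVL4 through their level with DMSO.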

How the data were processed

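RNA-seq covered 2 CBL0137 and 2 DMSO libraries, grouped by sample title. The authors trimmed reads with Trim Galore, aligned them to hg19 with HISAT2, obtained raw read counts with HTSeq 0.11.1 and called genes with DESeq2 1.26.0, as the series' design text states. The authors also deposited FPKM, computed from reads, gene length and depth; an FPKM above 0 stood beside 0 counts in all 4 libraries for 5103 genes. Neither the annotation release nor the strand setting of the counting is given in the sources used here, and the submitters' processing notes also name mm10 without a role.

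The 6 entries that name no gene were left out; reads in no feature were 10.3% and 10.2% of counted reads with CBL0137 and 8.52% and 8.82% with DMSO. Symbols came from a reference table of identifiers, and GRCh37 positions from GENCODE release 44, which held 58524 of the 60617 identifiers. Counts were tested with edgeR 4.0.16 (TMM, filterByExpr with a minimum count of 10, quasi-likelihood F test) in R 4.3.3; 17374 genes were tested. SE is the absolute log2 fold change over the square root of F. Replicates differed by more than sampling noise (chi-square per degree of freedom 2.68 for CBL0137 and 2.95 for DMSO). Alternatives used DESeq2 1.42.0, limma 3.58.1 on log2(FPKM + 1) and log2(FPKM + 0.1), other scalings, filters and fold limits. Intervals are exact at 95% and cover counting error only. The procedure was tested on simulated data. The SOX members and the gene lists were chosen with earlier results of these data known. Named genes are the SOX genes, the Ewing markers and, of each list, up to 3 called genes in each direction with the smallest p; COL2A1, COL9A1, COL9A3, CHAD, ACAN, HAPLN1 and TUBB3 were added after their values were seen.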

Additional observations from a re-analysis of the deposited data

How the results depend on the processing

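The 4 called SOX members were 4 with DESeq2, with DESeq2 size factors, library size alone or upper-quartile factors in edgeR, and with the stricter filter. The number of calls ranged over 3 to 5 when 1 library was left out, and over all genes from 5117 to 5549, against 5798. It was 2 with log2(FPKM + 1) (3223 over all genes), 7 with no fold limit (10722 over all genes) and 1, SOX9, with a fold above 2 (3206 over all genes). It was 3 without a filter on low counts, where SOX8 was at 0.58, and 3 after removal of the GC and span trend, where SOX2 was called lower (-0.65) and SOX6 (-0.37) and SOX8 (0.10) lost their calls. SOX9 lost its call with log2(FPKM + 1), at 0.51, where the added 1 exceeds its FPKM. The Ewing marker LIPI was called higher (0.61) after removal of the GC and span trend. Signs turned for SOX12 (-0.25), SOX18 (-0.19), SOX2-OT (0.19) and NKX2-2 (-0.12) after removal of that trend, and for FLI1 without CBL0137 replicate 1 (-0.0103) and without DMSO replicate 1 (-0.0049), a range of -0.0103 to 0.0487 over the 4 fits that leave out 1 library; the cause was not tested. Of 112 values of the 8 tested members under alternatives, 101 kept their direction and their side of the threshold, 8 lost the call, 2 gained one and 1 changed sign; for the other 30 named genes this was so for 388 of 420.

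The share of higher calls over all genes was 54.6%, and was 68.8% when libraries were scaled by size alone (4138 higher, 1877 lower); that scaling put the median over all genes at 0.17 instead of 0.01. With the replicate number as a block in the fit, 5741 genes and the 4 members were called, and this changed no call of a member. The same-numbered libraries deviated from their group means with a correlation of 0.02, and the labels do not say that the numbers pair samples. With 2 libraries a group, an exact permutation test of 1 value cannot give a p under 0.333. Depth limits SOX5 and SOX10, with 12 and 11 reads over the CBL0137 libraries and 1 and 5 over the DMSO libraries.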
